A study of Mus musculus with 3 samples.

Results

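The IkappaB inhibitor family was described here through its 6 genes, Nfkbia, Nfkbib, Nfkbie, Nfkbiz, Nfkbid and Bcl3, of 55536 annotated genes in the gene tables. The genes were taken by symbol and all 6 matched 1 gene each. Polyadenylated RNA was sequenced from 3 samples of macrophages, primary phagocytes grown from bone marrow of the inbred mouse strain C57BL/6J, and the labels number them as biological replicates 1, 2 and 3 of 1 group. All 3 samples had received lipid A at 100 ng/ml in a first exposure of 12 hours, a washout of 12 hours and a second exposure to lipid A at 100 ng/ml of 180 minutes. The label fields disagree on the agent: the descriptions name lipid A, the membrane anchor of bacterial lipopolysaccharide, whereas the source and treatment fields name lipoprotein A and call it a protein. Age and sex are labelled as not collected, the 3 samples carry the same donor record, and no label says whether they came from separate animals or cultures, so the spread between them may be technical. No untreated or singly exposed group was analysed here, so the values are levels after the second exposure and say nothing of a change caused by either exposure.

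IkappaB proteins hold NF-kappaB transcription factors through a row of ankyrin repeats. The classical members, encoded by Nfkbia (IkappaB-alpha), Nfkbib (IkappaB-beta) and Nfkbie (IkappaB-epsilon), keep NF-kappaB dimers in the cytoplasm until the IkappaB kinases phosphorylate a pair of serines near the amino terminus, after which a ubiquitin ligase marks the inhibitor for destruction. Nfkbia is itself a target gene of NF-kappaB, which gives a negative feedback loop in macrophages that meet bacterial products. The nuclear, or atypical, members, encoded by Nfkbiz (IkappaB-zeta), Nfkbid (IkappaB-NS) and Bcl3, bind NF-kappaB p50 or p52 dimers on DNA and can raise or lower transcription of single genes. The precursors made by Nfkb1 and Nfkb2 also carry ankyrin repeats and can act as inhibitors; here they are counted with the NF-kappaB subunits.

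In assembly mm10 with annotation M21, Nfkbia spans chr12:55489410-55492647 on the minus strand and Nfkbie chr17:45555703-45563169 on the plus strand. Nfkbiz spans chr16:55811375-55838899 on the minus strand. The remaining members lie apart on chromosome 7, Bcl3 at chr7:19808462-19822770 and Nfkbib at chr7:28758251-28767512 on the minus strand and Nfkbid at chr7:30421732-30428746 on the plus strand. All 6 are annotated as protein-coding genes.

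The sequence that separates the classical from the nuclear genes is the stretch coding for the phosphorylated degron, the motif aspartate, serine, glycine, any 2 residues, serine. It was present in every annotated coding sequence of Nfkbia, Nfkbib and Nfkbie and in none of Nfkbiz, Nfkbid or Bcl3. The 60 bases around it are shown 5′ to 3′ on the coding strand, with the 6 codons of the motif in capitals, because these are the letters on which kinase-dependent destruction of the classical inhibitors turns.
Nfkbia-201, codons 31 to 36, minus strand, mm10 chr12:55492398-55492457: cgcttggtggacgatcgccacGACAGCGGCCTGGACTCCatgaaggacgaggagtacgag
Nfkbib-202, codons 18 to 23, minus strand, mm10 chr7:28766333-28766392: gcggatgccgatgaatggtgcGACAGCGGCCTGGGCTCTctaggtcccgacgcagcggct
Nfkbie-201, codons 17 to 22, plus strand, mm10 chr17:45555968-45556027: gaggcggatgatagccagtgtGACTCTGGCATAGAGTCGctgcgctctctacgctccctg
The serines fall at codons 32 and 36 of Nfkbia, 19 and 23 of Nfkbib, and 18 and 22 of Nfkbie.

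Promoter sequences from RefSeq (build GRCm38.p6), 250 bases before to 50 after a start site, were present for 5 of the 6 genes. They were searched on both strands for the kappaB consensus, the sequence of 10 letters that NF-kappaB dimers bind, and 2779 of all 32851 promoters (8.46%) held a match. Matches lay in the promoters of Nfkbia, Nfkbie and Bcl3 and in 1 of 3 promoters of Nfkbid; Nfkbib had none in this window. Each is shown on the strand of its gene, with the match in capitals and its position counted from the start site at 0, since the family includes known targets of the factor it inhibits.
Nfkbia, -29 to -20, minus strand, chr12:55492657-55492686: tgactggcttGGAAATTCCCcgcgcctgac
Nfkbie, -106 to -97, plus strand, chr17:45555584-45555613: gcagcaaacaGGGGGATTCCggaggggcgg
Nfkbid, -226 to -217, plus strand, chr7:30422170-30422199: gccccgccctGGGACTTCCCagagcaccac
Nfkbid, -181 to -172, plus strand, chr7:30422215-30422244: gggccgaacaGGAATTCCCCgtgcgcgggg
Bcl3, 2 to 11, minus strand, chr7:19822734-19822763: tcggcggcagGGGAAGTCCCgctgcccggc
A match describes the letters of the window and is not a measured binding site.

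For each sample the authors deposited a quantification table made from a transcriptome alignment and another made from FASTQ files, and the levels below are from the first unless the second is named. Replicate 1 held 23418690 expected counts, replicate 2 held 36863611 and replicate 3 held 37728915. Levels are given in TPM (the relative abundance of a transcript), which divide by transcript length and so allow genes to be compared within a sample. In the FASTQ-made tables Klf10 was listed in replicate 1 at 101009 TPM, against 1129 and 1297 in replicates 2 and 3, and Mir6236 at 56900 to 108562 TPM in the 3 samples. The median gene was higher in the alignment-made table by 0.47, 0.18 and 0.02 on the log2 scale in replicates 1, 2 and 3, and FASTQ-made levels are to be read against that shift; the part of Klf10 and Mir6236 in it was not tested. All 8 macrophage markers exceeded 1 TPM in every sample, with a summed level of 16295 to 18300 TPM; Lyz2 was the highest at 10782 ± 581 TPM (SD, n = 3). The T and NK cell, B cell, stromal and erythroid marker lists each summed to less than 1 TPM in every sample. Of 6 neutrophil markers, S100a8 and S100a9 exceeded 1 TPM in all 3 samples and Ly6g was at 0, and the list summed to 12, 98.5 and 10.8 TPM in replicates 1, 2 and 3.

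All 6 IkappaB genes exceeded 1 TPM in every sample, whereas 44.3% of 22028 protein-coding genes reached it. Their means spanned from 7.26 to 580 TPM, and the 3 classical genes each exceeded the 3 nuclear ones in TPM in every sample. Without division by transcript length, Nfkbib was below Nfkbiz in all 3 samples, at 130, 95.6 and 150 CPM against 210, 219 and 245. On that scale Nfkbie, at 229, 212 and 276 CPM, was below Nfkbiz in replicate 2. Nfkbia was the most abundant family member, at 749.8, 462 and 528 TPM in replicates 1, 2 and 3, a mean of 580 ± 151 (SD, n = 3) from 15670, 15312 and 17860 expected counts. Replicate 1 stood above replicates 2 and 3. In the FASTQ-made table, at 523, 424 and 542 TPM, replicate 3 was the highest, but those values carry the median shift given above. Less that shift, the tables differed for Nfkbia by 0.05, -0.06 and -0.06 on the log2 scale in replicates 1, 2 and 3. Among 9749 protein-coding genes with at least 1 TPM in every sample, whose median was 18 TPM, Nfkbia stood at percentile 97.7.

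Nfkbib, whose product binds NF-kappaB dimers and is degraded more slowly than IkappaB-alpha, was at 191, 139 and 222 TPM, a mean of 184 ± 41.8 TPM (SD, n = 3). Nfkbie, whose product contributes a delayed negative feedback, was at 153, 138 and 183 TPM, a mean of 158 ± 22.7 TPM (SD, n = 3). The ranges of these classical genes overlapped, and their levels were nearly the same in replicate 2. They ranked at percentiles 92.2 and 91 of expressed protein-coding genes, respectively. Part of Nfkbib lies opposite Sirt2, a deacetylase gene at 101 to 110 TPM with which it shares 42 exonic bases, and no source used here says whether counting used strand.

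Nfkbiz, whose product is a coactivator for a subset of inflammatory genes, led the nuclear members at 94.4, 94.2 and 108 TPM, a mean of 98.8 ± 7.8 TPM (SD, n = 3). Relative to the mean, its SD was the smallest in the family in this table (7.9%). It was not the smallest in FASTQ-made TPM, with Nfkbiz at 84.5 ± 20.7 TPM and Nfkbia at 496 ± 63.4 TPM (SD, n = 3). Those values carry the median shift between libraries. Once the FASTQ-made counts were scaled between libraries, the SD of Nfkbiz was again the smallest. It was 0.133 on the log2 scale, against 0.232 to 0.442 for the other members. Bcl3, whose product stabilises p50 dimers on DNA and dampens cytokine transcription in macrophages, was at 40.0, 37.6 and 59.5 TPM, a mean of 45.7 ± 12 TPM (SD, n = 3). Replicate 3 was the highest for both genes. Nfkbid, whose product represses a set of late genes such as Il6 in mouse macrophages, was the lowest member at 10.1, 5.48 and 6.21 TPM, from 275, 240 and 284 expected counts. Its mean of 7.26 ± 2.48 TPM (SD, n = 3) put it at percentile 25.7 of expressed protein-coding genes, against 86.7 for Nfkbiz and 72.9 for Bcl3. The rank of Nfkbid depends on the background: it was at percentile 39.5 of protein-coding genes with a mean of at least 0.1 TPM and 67.1 of all protein-coding genes.

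**Figure D1:**
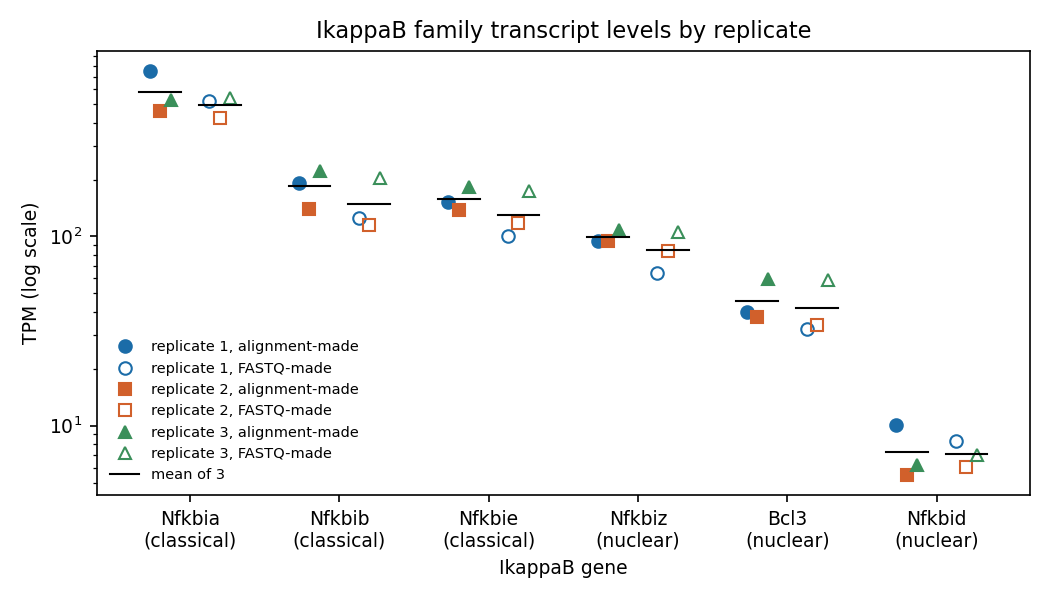
TPM of each IkappaB gene (log axis) in each of 3 replicates, from the alignment-made tables (filled) and the FASTQ-made tables (open), with a line at the mean of 3. The genes run from Nfkbia at 580 TPM down to Nfkbid at 7.26 TPM, and only Nfkbib and Nfkbie overlap in the alignment-made values.

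The order Nfkbia, Nfkbib, Nfkbie, Nfkbiz, Bcl3, Nfkbid was set by non-overlapping ranges at 4 of its 5 steps in the alignment-made table. Nfkbia exceeded Nfkbib by 1.97, 1.73 and 1.25 on the log2 scale within replicates 1, 2 and 3. Nfkbib exceeded Nfkbie by only 0.32, 0.01 and 0.28, and in the FASTQ-made table the difference in replicate 2 was -0.03, so this pair was not separated; without division by transcript length the mean ratio was -0.95. Nfkbie exceeded Nfkbiz by 0.70, 0.55 and 0.76, a mean of 0.67 that fell to 0.08 without division by transcript length. Within samples of the FASTQ-made table the difference was nearly the same, at 0.64, 0.50 and 0.72. Their ranges over samples overlapped there, with Nfkbie at 100 to 174 TPM and Nfkbiz at 64.3 to 106 TPM, but these TPM carry the median shift between libraries. Nfkbiz exceeded Bcl3 by 1.24, 1.33 and 0.86 and Bcl3 exceeded Nfkbid by more, the log2 ratio of Nfkbid to Bcl3 being -1.99, -2.78 and -3.26. With 3 samples an exact two-sided sign-flip test cannot give a p below 0.25, so these orders are given as descriptions.

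Of the summed TPM of the 6 genes, Nfkbia held 60.5%, 52.7% and 47.7% in replicates 1, 2 and 3, a mean of 53.7% ± 6.46 (SD, n = 3). Nfkbib held 17.1% ± 2.55, Nfkbie 14.9% ± 2.22, Nfkbiz 9.37% ± 1.59, Bcl3 4.3% ± 1.08 and Nfkbid 0.667% ± 0.132 (each SD, n = 3). The classical genes together were at 1094, 740 and 932 TPM and the nuclear genes at 144, 137 and 174 TPM. The log2 ratio of the classical to the nuclear sum was 2.92, 2.43 and 2.43 in replicates 1, 2 and 3, a mean of 2.59 ± 0.28 (SD, n = 3). Replicates 2 and 3 had the same ratio although their summed levels differed, and replicate 1 was above both. The FASTQ-made ratios were 2.84, 2.41 and 2.42 in replicates 1, 2 and 3.

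For comparison across samples the expected counts were scaled by TMM and expressed as log2 CPM, the share of a library's counts. Nfkbia stood 0.42 above its mean in replicate 1 and was at -0.33 and -0.09 in replicates 2 and 3, and Nfkbid had nearly the same course at 0.52, -0.39 and -0.13. Bcl3 was highest in replicate 3, at -0.12, -0.32 and 0.44, as were Nfkbib at 0.11, -0.40 and 0.30 and Nfkbie at -0.03, -0.20 and 0.23. Nfkbiz was at -0.07, -0.07 and 0.14. Nfkbia, Nfkbib, Nfkbie, Nfkbid and Bcl3 were lowest in replicate 2.

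Replicate 2 had the lowest TPM of all 6 genes in the alignment-made table, but of only 3 in the FASTQ-made table, where replicate 1 was the lowest for the other 3. Replicate 1 was the highest for Nfkbia and Nfkbid in the alignment-made table, but in the FASTQ-made table it was the highest for Nfkbid alone and replicate 3 for the other 5. These FASTQ-made orders are not corrected for the median shift, which was largest in replicate 1, at 0.47 on the log2 scale. Less that shift, the tables differed by -0.32 to 0.14 across the 6 genes and 3 replicates. The neutrophil markers S100a8 and S100a9 were highest in replicate 2, at 39.4 and 58 TPM, against at most 6.84 and 5.1 TPM in replicates 1 and 3. The other neutrophil markers were under 1 TPM in every sample. In replicates 1, 2 and 3, Camp was at 0.76, 0.97 and 0.24 TPM and Mpo at 0.17, 0.18 and 0 TPM. Elane and Ly6g were at 0 in replicate 2. The part of neutrophils in the lower IkappaB levels was not tested. In bulk RNA, fewer cells of a type and less RNA per cell cannot be told apart.

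**Figure D2:**
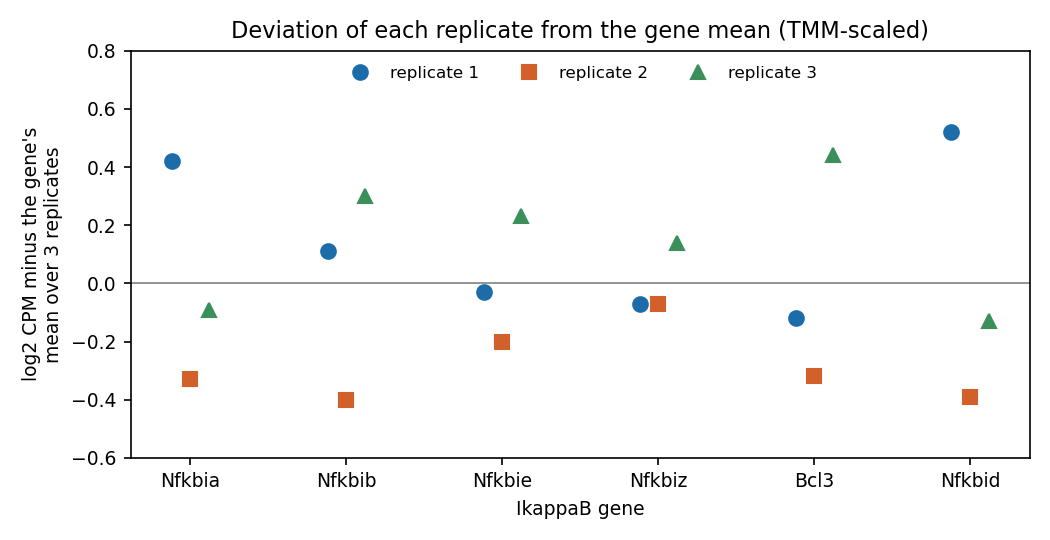
TMM-scaled log2 CPM of each IkappaB gene minus its mean over the 3 replicates; each point is 1 replicate. Nfkbia and Nfkbid are highest in replicate 1, at 0.42 and 0.52, and Nfkbib, Nfkbie, Nfkbiz and Bcl3 are highest in replicate 3.

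No IkappaB gene passed the test of excess spread between replicates. In the filtered fit no other gene passed either, so the absence of a call does not show that their spread is ordinary. In an intercept-only quasi-likelihood fit (edgeR), a one-sided test of each gene's dispersion against the trend called 0 of 11992 genes (0%) after Benjamini-Hochberg adjustment at 0.05, with 627 at an unadjusted p under 0.05, and DESeq2 marked 53 genes as dispersion outliers. None of the 6 IkappaB genes was among the genes called or marked, and in this fit 0 of the 6 had an unadjusted p under 0.05. Bcl3 and Nfkbib had one under 0.05 without the count filter and without replicate 1, and Nfkbia without replicate 3, but no adjusted p of edgeR's test passed for any member. The SD of log2 CPM was 0.47 for Nfkbid, 0.39 for Bcl3, 0.38 for Nfkbia, 0.36 for Nfkbib, 0.22 for Nfkbie and 0.12 for Nfkbiz, against a median of 0.19 over all genes tested. These SDs rest on single libraries: without replicate 1 that of Nfkbid was 0.182 and that of Nfkbia 0.168, below Bcl3 at 0.538, Nfkbib at 0.497 and Nfkbie at 0.307. Without replicate 2 that of Nfkbib was 0.137, and without replicate 3 those of Bcl3, Nfkbie and Nfkbiz were 0.143, 0.122 and 0.000304. With all 3 samples every member but Nfkbiz was above that median, with Nfkbid at percentile 87.1 of all genes tested and Nfkbiz at percentile 28.8. Adjusted p-values of edgeR's test ran from 0.95 for Nfkbia, Nfkbib and Bcl3 to 0.995 for Nfkbie and Nfkbiz.

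Likeness of replicate course was measured as the Euclidean distance between deviations of log2 CPM over the 3 samples, among 10913 protein-coding genes. Nfkbia and Nfkbid were each other's nearest family member at a distance of 0.12, with 106 genes nearer to Nfkbia and 50 nearer to Nfkbid. Nfkbie and Nfkbiz were also each other's nearest, at 0.16, but 738 and 2165 genes lay nearer. Nfkbib and Bcl3 had Nfkbie as nearest member, at 0.25 and 0.26, with 448 and 319 genes nearer. The nearest 3 genes of all were Kctd1, Pilra and Lrrcc1 for Nfkbia, Pira2, Plek and Atm for Nfkbib, Kremen1, Dgke and Cadm1 for Nfkbie, Ap1s1, Mon1b and Mrto4 for Nfkbiz, Klra2, C1qtnf6 and Tpmt for Nfkbid, and Wdr59, Myadm and St3gal3 for Bcl3. With 3 samples, each course rests on 3 values, and many genes have a near match.

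The transcripts of the classical genes were nearly uniform and nearly all coded for the degron. Nfkbia-201, the single coding transcript of the gene, held 99.2%, 97.6% and 98.9% of its TPM in replicates 1, 2 and 3. Nfkbib-202 held 98%, 98.4% and 97.7%, and the rest belonged to Nfkbib-201, with the same 359 codons, and in replicate 3 to Nfkbib-203, annotated with an incomplete coding sequence. Nfkbie-201 (364 codons) held 89%, 92.8% and 93.4%, and Nfkbie-203 (371 codons, of which the first 344 are shared and the rest differ) held 7.02%, 3.66% and 4.58%. Transcripts coding for the degron made up 98.6% ± 0.862 of Nfkbia, 100% of Nfkbib and 96.8% ± 1.03 of Nfkbie TPM (SD, n = 3).

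Nfkbiz was expressed as 2 coding forms from start sites 16761 bases apart. Nfkbiz-204 codes for the longer protein of 728 codons, and Nfkbiz-203, whose first exon lies upstream, codes for 629 codons that equal the end of the longer one, so that its product lacks 99 residues at the amino terminus. Their first 60 coding bases, with the start codon in capitals, show where each reading frame opens.
Nfkbiz-204, minus strand, mm10 chr16:55821994-55822053: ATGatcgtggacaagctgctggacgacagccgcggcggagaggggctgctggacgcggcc
Nfkbiz-203, minus strand, mm10 chr16:55819636-55819695: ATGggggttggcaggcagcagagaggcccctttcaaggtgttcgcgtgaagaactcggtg
The longer form held 73.8%, 69.6% and 61.8% of Nfkbiz TPM in replicates 1, 2 and 3. The shorter form held 20%, 26.4% and 31.8%, a mean of 26.1% ± 5.9 (SD, n = 3), nearly all of it Nfkbiz-203. The FASTQ-made table gave 20.1%, 26.7% and 34.4% for the shorter form, in the same order of samples. In TPM the longer transcript Nfkbiz-204 was at 69.7, 65.6 and 66.7, while Nfkbiz-203 was at 18.8, 24.9 and 34.1, so the samples differed mainly in the shorter form. The noncoding Nfkbiz-205, which begins at the upstream start site, held a further 6.15%, 3.93% and 6.38%.

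Nfkbid also had a longer and a shorter coding form, but the tables disagreed on their shares. Nfkbid-203, annotated with 470 codons from a CTG start, held 85.7%, 71.5% and 86.3% of Nfkbid TPM in the alignment-made table and 58.9%, 53.5% and 76.9% in the FASTQ-made table. Nfkbid-201 and Nfkbid-202 share a coding sequence of 327 codons that equals the end of the longer one. Nfkbid-202 was at 0 in all 3 samples of the alignment-made table and held 18.9%, 26% and 6.19% in the FASTQ-made table. Its start site is the one whose promoter held both kappaB matches shown above. The Nfkbid shares are therefore uncertain, and the whole gene held only 240 to 284 expected counts, the fewest in the family.

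Bcl3-201, the complete coding transcript of 448 codons, held 92.5%, 84.6% and 90.3% of Bcl3 TPM. Bcl3-203, a short transcript with an incomplete coding sequence, held 1.85%, 11.2% and 8.91%, from 6, 52 and 65 expected counts, but at most 2.58% in the FASTQ-made table.

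**Figure D3:**
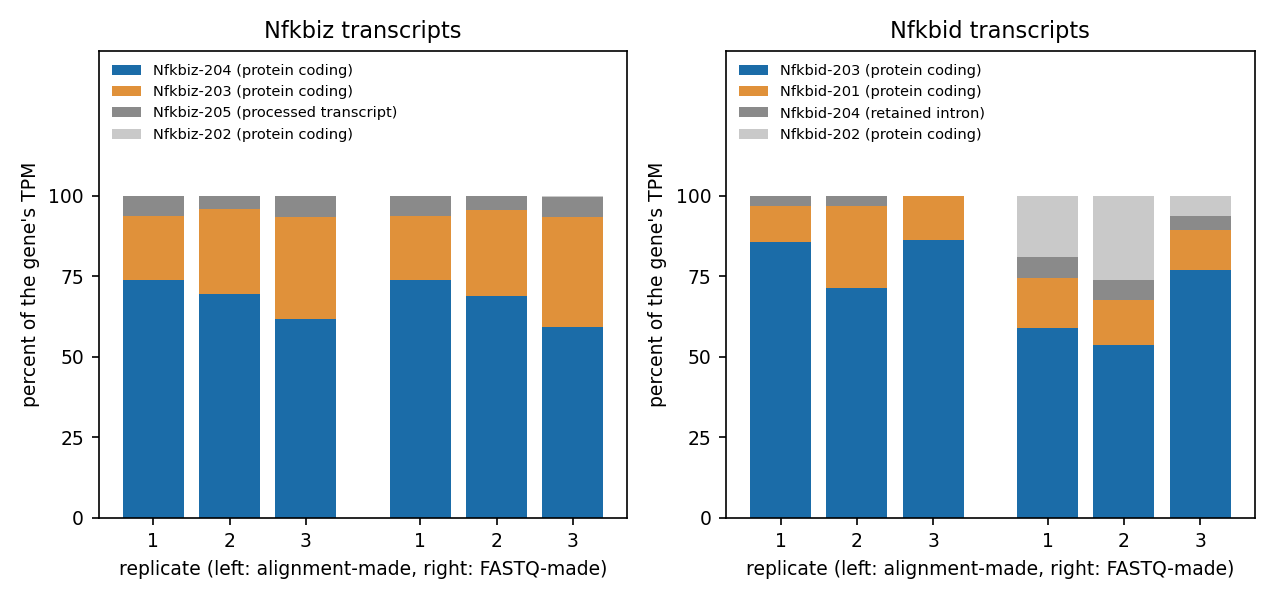
Percent of the gene's TPM held by each annotated transcript of Nfkbiz (left) and Nfkbid (right) in each replicate, as stacked bars, from the alignment-made (left bars) and FASTQ-made (right bars) tables. The tables give Nfkbiz nearly the same shares, whereas Nfkbid-202 is at 0 in one table and holds 6.19% to 26% in the other.

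The genes that the IkappaB proteins act on and answer to were expressed with few exceptions. All 5 NF-kappaB subunit genes exceeded 1 TPM in every sample, with a median over the list of 88 TPM, whereas 44.3% of 22028 protein-coding genes did so. Nfkb1 (p105, the precursor of p50) was at 230, 229 and 282 TPM and Nfkb2 (p100, the precursor of p52) at 236, 199 and 290 TPM, above Rela, Relb and Rel at means of 88, 74.4 and 29.3 TPM. The summed classical IkappaB TPM exceeded the summed subunit TPM by 0.73, 0.29 and 0.26 on the log2 scale, a mean of 0.43 ± 0.26 (SD, n = 3). Without replicate 1 this mean was 0.28, and without division by transcript length the ratio turned, to -0.54.

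All 5 IkappaB kinase genes exceeded 1 TPM in every sample, with a list median of 73.1 TPM. Over all 22028 protein-coding genes the share was 44.3%, which is also the background for the other lists of this paragraph. Ikbke, a noncanonical kinase, was the highest at 386, 342 and 234 TPM, followed by its relative Tbk1 at 105, 97.2 and 72.9 TPM; both were lowest in replicate 3. The canonical complex genes Ikbkb, Chuk and Ikbkg averaged 73.1, 29.3 and 20.1 TPM. All 5 genes of the ubiquitin ligase that recognises the phosphorylated degron were expressed, led by the adaptor gene Skp1a at 104 ± 9.51 TPM and the RING subunit gene Rbx1 at 82.4 ± 11.9 TPM (SD, n = 3). Of its paired degron receptors, Fbxw11 was at 81.6 TPM and Btrc at 7.64 TPM on average. The 5 other binding regulators were expressed at 6.36 to 55.8 TPM, led by Commd1, which promotes RelA turnover, at 55.8 ± 2.28 TPM and Nkiras2, which binds IkappaB proteins, at 42.6 ± 3.89 TPM (SD, n = 3).

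Of 5 genes known from mouse macrophages to need IkappaB-zeta, 3 exceeded 1 TPM in every sample, as did 44.3% of 22028 protein-coding genes. The ranges of these 3 over the samples were wider than that of Nfkbiz. The spread of Nfkbiz was at percentile 28.8 of all genes tested, so most genes varied more than it did. Lcn2, encoding the iron-scavenging protein lipocalin 2, was at 203, 83 and 65.9 TPM, and Il12b, encoding the p40 subunit of interleukin 12, at 69.8, 50.4 and 175 TPM. Il6, named after its values were seen, was at 159, 16.4 and 45.4 TPM. The colony-stimulating factor gene Csf2 was at 8.6, 0.3 and 0.81 TPM, from 74, 4 and 11 expected counts, and Csf3 at 1.8, 0.37 and 0.71 TPM, from 33, 11 and 21. Lcn2, Il6, Csf2 and Csf3 were highest in replicate 1 and Il12b in replicate 3 in the alignment-made table. All 3 genes of factors that degrade Nfkbiz mRNA were expressed, with Zc3h12a (the RNase regnase-1) at 77.8, 54.3 and 79 TPM and Rc3h1 (roquin-1) at 9.81, 9.61 and 10.3 TPM.

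**Figure D4:**
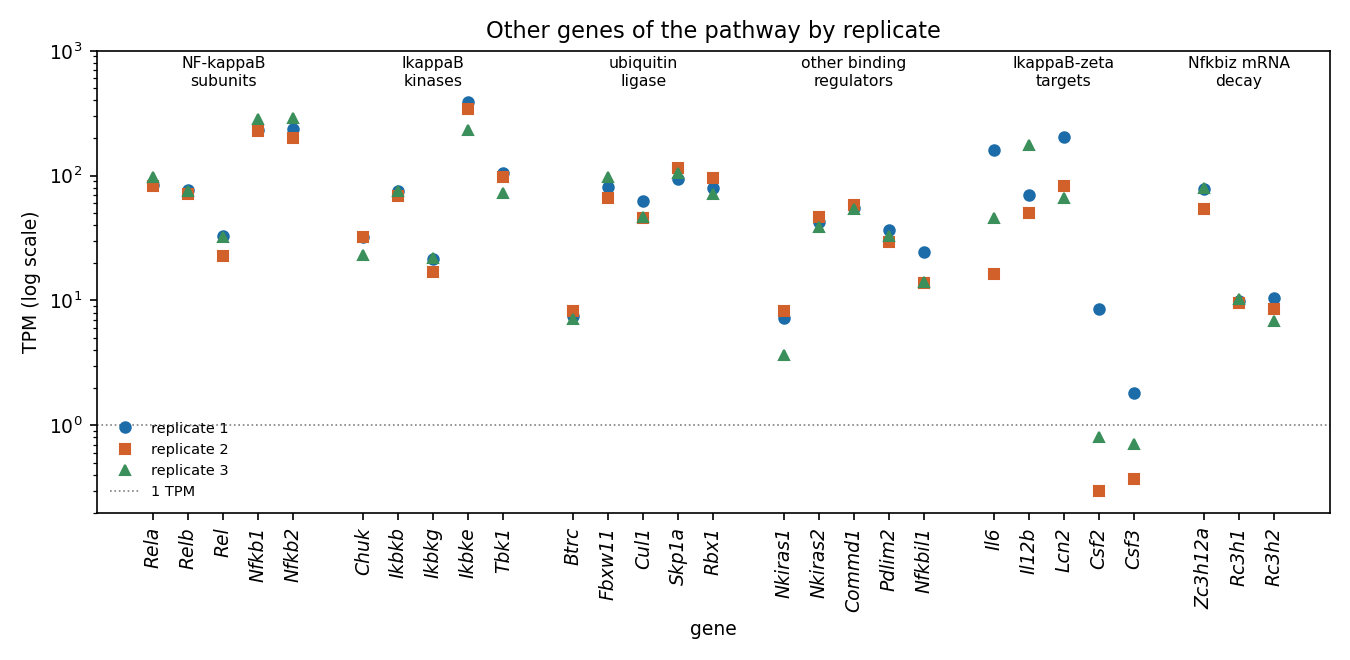
TPM of the other genes of the pathway (log axis), grouped by list, with 1 point per replicate and a dotted line at 1 TPM. Among the subunit, kinase and ligase genes, Ikbke spans 234 to 386 TPM. Il6 spans 16.4 to 159 TPM, and Csf2 and Csf3 lie under 1 TPM in replicates 2 and 3.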

How the data were processed

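Gene and transcript tables of 3 samples of 1 group were analysed. Per the labels, libraries started from 1 µg RNA and were sized to 250 to 400. Per the deposited file lists, the tables use assembly mm10 and annotation M21; the FASTQ-made table of replicate 1 came from 6 files and those of replicates 2 and 3 from 4 each. Which aligner and counting program were run is not given in the sources used here. Per the file headers, the authors deposited expected counts (estimated counts in the FASTQ-made tables), TPM, effective lengths and, as a percent, each transcript's share of its gene; that share was recomputed here from TPM. Of 81881 entries in the gene table, 55536 matched annotated genes. Entries that name no mouse gene together held 0.178%, 0.107% and 0.115% of counts in replicates 1, 2 and 3 and were left out of tests.

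Expected counts were rounded for edgeR 4.0.16 (R 4.3.3), filtered by filterByExpr and scaled by TMM (factors 0.982, 1.03 and 0.992). The fit was checked on data simulated with each gene's dispersion at the trend. That check does not show how well the test finds spread as small as that of the IkappaB genes. DESeq2 1.42.0 gave alternative size factors and dispersion outliers. Other values are means, SDs and within-sample log2 ratios with no test and no pseudocount. A gene at 0 may have had 3 counts, which is 0.128 CPM in replicate 1, 0.0814 in replicate 2 and 0.0795 in replicate 3, for counting error alone. Of the 31-base sequences of each gene's transcripts, 0.298% at most occur in other genes and 0 in other family members. Degron and start sequences were read from M21 transcripts, with Python 3.11.15, numpy 2.4.6, pandas 2.3.3, biopython 1.88 and matplotlib 3.10.9.

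From each pathway list the text names the highest 2 genes by mean TPM and each gene under 1 TPM in any sample. Other pathway or marker genes named were added after their values were seen. The members and lists were chosen with earlier results of these data known. Alternatives were the FASTQ-made table, coding transcripts alone, CPM without division by length, TMM-scaled counts per kilobase, pseudocounts of 0.1 and 1, other gene filters and leaving out each replicate.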

Additional observations from a re-analysis of the deposited data

How the results depend on the processing

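The Nfkbia share of the family, the classical to nuclear ratio and the classical to subunit ratio were recomputed under the alternatives. They moved by less than 1 SD under the FASTQ-made table, coding transcripts alone, and pseudocounts of 0.1 and 1 where applied. Without division by transcript length, CPM gave Nfkbia 44.4% of the family and a log2 classical to nuclear ratio of 1.65, and reversed the classical to subunit ratio to -0.54, Nfkbib against Nfkbie to -0.95 and Nfkbib against Nfkbiz to -0.86; by construction that scale counts longer transcripts more. Leaving out a replicate gave 50.2% to 56.6% for the Nfkbia share. It gave 2.43 to 2.68 for the classical to nuclear ratio and 0.28 to 0.51 for the classical to subunit ratio. A mean of 3 values cannot move by 1 SD when 1 of them is left out, so these ranges are given without a verdict. Without the filter on low counts edgeR called 143 of 20285 genes instead of 0, and DESeq2 marked 53; the cause was not tested. None of the 6 genes was called under any alternative of edgeR's test. The FASTQ-made share of the shorter Nfkbiz form was compared after the data were seen. No paired analysis was possible because there is 1 group. The transcript shares of Nfkbid rested on the fewest expected counts in the family, 275, 240 and 284 for the gene, and the tables disagreed on them. The part of depth in that disagreement was not tested.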

Other observations

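Transcripts annotated as retaining an intron were a minor part of the family's RNA. They held 0.775%, 2.39% and 1.07% of Nfkbia TPM in replicates 1, 2 and 3, from 41, 121 and 61 expected counts, and 3.98%, 3.55% and 2.02% of Nfkbie TPM, from 266, 347 and 266. For Bcl3 the share was 3.98% and 4.15% in replicates 1 and 2 and 0 in replicate 3. Coding transcripts held 94.5% to 100% of TPM on average across the 6 genes, against a median of 96.3% over 9741 expressed protein-coding genes. In the FASTQ-made table the coding share of Bcl3 was lower, at 77.1%, 85.4% and 92.4%, with noncoding transcripts of 346 and 460 bases holding most of the rest.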
